A study of Mus musculus with 9 samples.

Results

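The genes compared were 48 genes of the lysosome, found by gene symbol in the deposited RNA-Seq table from a list of lysosomal enzymes, lysosomal membrane proteins, subunits of the vacuolar proton pump (V-ATPase) and the 3 MiT/TFE transcription factors. Of the 55367 genes in the table, all 48 were present, and all 48 were among the 15365 genes with enough counts to be tested. The list follows what the genes do, and 9 of its enzymes, which break down glycosaminoglycans, were set apart as a subgroup. It was not filtered by measured values, but it was chosen with earlier results of these data known. RNA came from whole osteosarcomas (OS) of genetically engineered mouse models (GEMMs). The 4 p53-driven tumors were from mice labelled Col2.3-Cre/TrpP53fl/+, and the 5 Myc-knockin tumors were from mice labelled with Cre, a Lox-Stop-Lox (LSL) c-MycT58A allele and p53fl/+. Both groups carried Cre and 1 floxed *Trp53* allele, and the Myc-knockin mice also carried the mutant c-Myc allele behind a stop cassette that Cre removes. Cre is driven by the osteoblast-specific Col 2.3 promoter, so the alleles change in cells of the osteoblast lineage, whereas the RNA of a whole tumor also comes from osteoclasts, macrophages and other host cells. No age or sex is given in the labels. The columns of the table, F187, F325, F331 and F368 for the p53-driven tumors and M351, M408, M9, M624 and M664 for the Myc-knockin tumors, were assigned to a genotype by their letter and were not matched to numbered samples. Values of single tumors are given in that order throughout.

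Lysosomes are acidic compartments in which hydrolases break down proteins, lipids, glycoproteins and glycosaminoglycans brought in by endocytosis, phagocytosis and autophagy. The V-ATPase pumps the protons that these hydrolases need, and the membrane proteins protect the membrane and carry the products out. The MiT/TFE factors bind short CACGTG-type elements in the promoters of many lysosomal genes, and the kinase mTORC1 keeps TFEB and TFE3 out of the nucleus when nutrients are ample. Osteoclasts, the cells that resorb bone, move the V-ATPase and lysosomal enzymes to their surface to dissolve mineral and matrix, and MITF and TFE3 take part in their differentiation. Macrophages are also rich in lysosomes.

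The depth and the make-up of the libraries differed between tumors. Total counts ranged from 2716322 in M351 to 17073285 in M624, and a gene with 3 counts stood at 0.114 to 2.39 CPM, the depth-scaled unit, after TMM normalization, in which all levels are given here. In F187, M351, M408 and M9, 44.3%, 67.9%, 23.2% and 80.98% of counts lay on 12 satellite-repeat genes, against at most 0.0242% in the other 5 libraries. M624 and M664 stood apart in the noncoding RNA *Rn7sk*, at 3.47 and 6.35 CPM against at least 6545 CPM elsewhere. *Myc*, the targeted gene, was at 43.5 to 67.1 CPM in the p53-driven and 144 to 1045 CPM in the Myc-knockin tumors, in the direction of the labels. No source used here says whether the tumors came from separate litters, and p values measure the spread between these 9 samples only.

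Where they passed the test, the lysosomal genes were lower in the Myc-knockin tumors. In bulk RNA, fewer cells of a type and less RNA per cell cannot be told apart. Genes counted as called had a fold change over 1.5 and an adjusted p under 0.05 by the quasi-likelihood test of edgeR, corrected by Benjamini-Hochberg for all 15365 genes. By this rule 14 of the 48 genes (29.2%) were called lower in the Myc-knockin tumors and 0 were called higher. Over all genes tested, 3.00% were called lower and 2.26% higher. The log2 fold change, Myc knockin minus p53 driven, was below 0 for 44 of the 48 genes and for 43.8% of all genes. Its median was -0.94 over the 48 genes and 0.14 over all genes. In 22 of the 48 genes every Myc-knockin tumor lay below every p53-driven tumor, a pattern found in 7.54% of all genes, and in 0 of them did every Myc-knockin tumor lie above. The genes called were *Atp6v1a*, *Atp6ap1* and *Atp6ap2* of the V-ATPase, the membrane protein *Npc1*, the glycosaminoglycan-degrading enzymes *Arsb*, *Hexa*, *Glb1* and *Ids*, the other hydrolases and activators *Manba*, *Ctsa*, *Gm2a*, *Ppt1* and *Asah1*, and the transcription factor *Mitf*. The genes nearest to a call were *Atp6v1h* (-1.13, edgeR adjusted p = 0.0522) and *Lamp2* (-1.17, edgeR adjusted p = 0.0542).

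**Figure D1:**
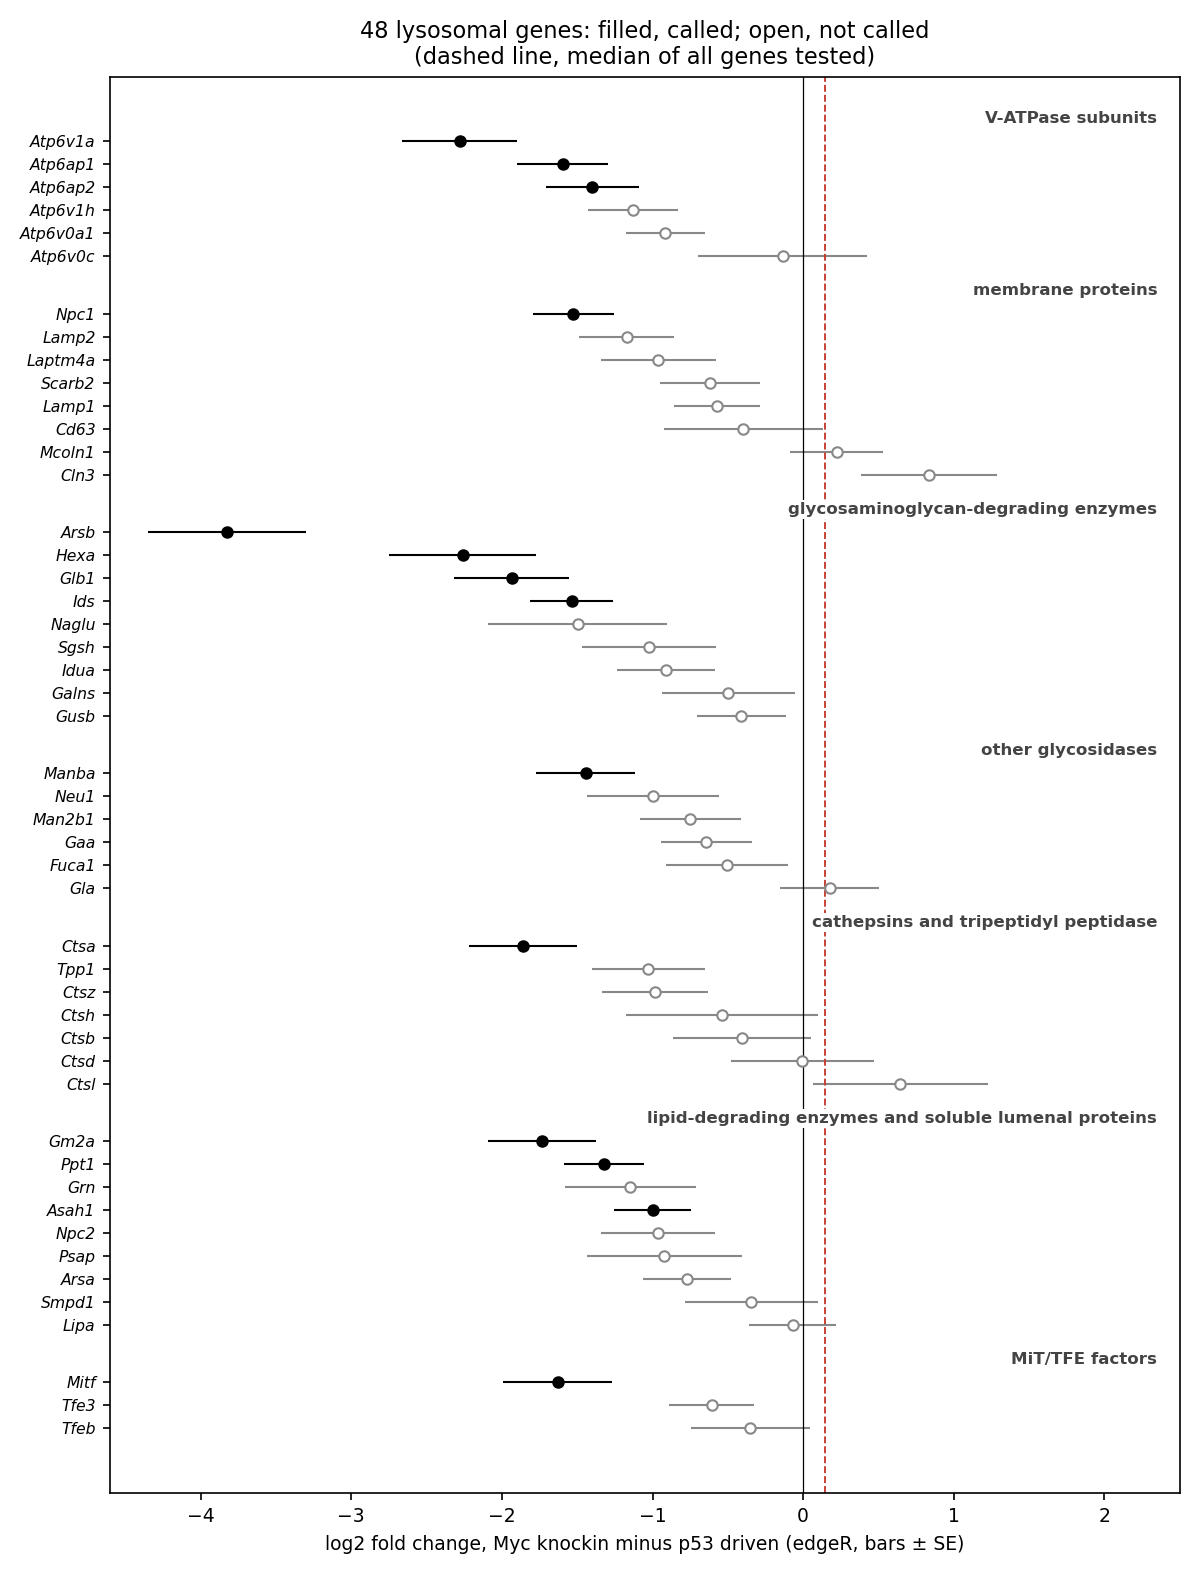
The log2 fold change of each of the 48 lysosomal genes, Myc-knockin minus p53-driven tumors, is plotted on the horizontal axis with its standard error as a bar, and genes are grouped by role from top to bottom. Filled points are the 14 genes called lower, and 44 of the 48 points lie to the left of 0, while the dashed line marks the median of all genes tested, 0.14.

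How many genes passed the test depended on single libraries, and most on the p53-driven ones. Without F325 the number called fell from 14 to 0, and without F331 or F368 to 1, which was *Arsb* both times. Without F187, M351 or M624 it was 6, 9 and 7, and without M408, M664 or M9 it was 15, 18 and 13. The calls over all genes changed too, from 809 to 8, 6 and 5 without F325, F331 and F368. They did not always move in the same direction as those of the lysosomal genes. Without M9 the calls over all genes rose to 1588 while the lysosomal calls fell to 13. Without M664 they fell to 698 while the lysosomal calls rose to 18. The median log2 fold change of the 48 genes stayed between -1.08 and -0.79 in these 9 fits, with 41 to 45 genes below 0.

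Without M624 and M664, 19 genes were called lower against 2.81% of all genes, and 11 of them were among the 14. *Manba*, *Asah1* and *Mitf* were then not called, whereas *Cd63*, *Ctsz*, *Naglu*, *Man2b1*, *Fuca1*, *Neu1*, *Grn* and *Atp6v0c* were. Without the 4 libraries with satellite reads, which left 3 p53-driven and 2 Myc-knockin tumors, 10 genes were called lower against 12.1% of all genes, a background well above that of the 9 tumors, and *Cln3* was called higher. Of the 14 genes, *Npc1*, *Ctsa*, *Arsb*, *Ids*, *Asah1*, *Ppt1*, *Mitf* and *Atp6v1a* were called in those 5 tumors, and *Glb1*, *Hexa*, *Manba*, *Gm2a*, *Atp6ap1* and *Atp6ap2* were not. The median of the 48 genes was -1.08 in the 7 tumors and -0.60 in the 5 tumors. DESeq2, run on the same 9 tumors, called 19 of the genes lower, all 14 included, against 7.30% of all genes.

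The V-ATPase is built of a V1 sector, which splits ATP in the cytosol, and a V0 sector, which moves protons through the membrane. Of 6 subunits in the list, 3 were called lower, and in 5 of the 6 the groups did not overlap. Beside the counts of this and each later list, the shares over all genes were 3.00% called lower and 7.54% with every Myc-knockin tumor below every p53-driven tumor. *Atp6v1a* encodes the catalytic subunit of V1 (ENSMUSG00000052459, chromosome 16, 44085402 to 44139705, minus strand, in GENCODE coordinates for mm10). *Atp6v1a* was at 284, 305, 719 and 208 CPM in the p53-driven tumors and at 74.5, 91.02, 58.2, 89.8 and 75.8 CPM in the Myc-knockin tumors. The highest Myc-knockin tumor lay below the lowest p53-driven tumor, F368, and F331 stood above the other p53-driven tumors. Expressed as group means, this was 379 ± 230.4 CPM against 77.9 ± 13.4 (SD, n = 4 and 5), with a log2 fold change of -2.28 (standard error 0.38, edgeR adjusted p = 0.0203). The *Atp6v1a* call was lost when F325, F331 or F368 was left out (edgeR adjusted p of 0.0624 to 0.0647).

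Both accessory proteins of the pump were lower as well. *Atp6ap1* (ENSMUSG00000019087, chromosome X, 74297097 to 74304721, plus strand) encodes an accessory subunit that helps to assemble V0. *Atp6ap1* was at 174, 187.5, 326 and 181 CPM in the p53-driven tumors and at 70.8, 62.8, 53.4, 65.2 and 106 CPM in the Myc-knockin tumors. F331 was the highest tumor and the other 3 p53-driven tumors lay close together, and no Myc-knockin tumor reached them. It had a log2 fold change of -1.60 (standard error 0.30, edgeR adjusted p = 0.0247). *Atp6ap2* (ENSMUSG00000031007, chromosome X, 12587801 to 12617049, plus strand), known as the prorenin receptor, is a further accessory protein. *Atp6ap2* was at 97.96, 95.5, 177 and 91.2 CPM in the p53-driven tumors and at 38.2, 44.1, 27.1, 45.8 and 61.96 CPM in the Myc-knockin tumors. The groups did not overlap, and F331 again stood apart. It had a log2 fold change of -1.40 (standard error 0.31, edgeR adjusted p = 0.0334). The *Atp6ap1* call was lost when F325, F331 or F368 was left out (edgeR adjusted p of 0.0771 to 0.0931). The *Atp6ap2* call was lost when F187, F325, F331, F368, M351 or M624 was left out (edgeR adjusted p of 0.0585 to 0.123).

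Among the V-ATPase genes not called, *Atp6v1h*, a regulatory subunit of V1, had values of 49.5 to 114 CPM in the p53-driven and 22.3 to 40.3 CPM in the Myc-knockin tumors. *Atp6v0a1*, a subunit of the proton path, had a log2 fold change of -0.92 (edgeR adjusted p = 0.0628), also with groups that did not overlap. *Atp6v0c*, which forms the rotating ring, had a log2 fold change of -0.13 (edgeR adjusted p = 0.907), and its Myc-knockin tumors fell apart into M351, M408 and M9 at 7.39, 5.68 and 6.37 CPM and M624 and M664 at 25.99 and 36.01 CPM. Without M624 and M664 it was called lower (-1.48, edgeR adjusted p = 0.0451), and in the 5 tumors without satellite reads its sign turned (0.68).

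Most glycosaminoglycans are long sulfated sugar chains of matrix proteoglycans. The enzymes of the subgroup take such chains apart from the end, a sugar or a sulfate at a time, each step by its own enzyme. Inherited loss of these enzymes causes the mucopolysaccharidoses and related storage diseases, many of them with skeletal disease. All 9 enzymes in the subgroup had a log2 fold change below 0, with a median of -1.50. Of the 9, 4 were called lower, against 3.00% of all genes. The groups did not overlap in 6 of the 9, where every Myc-knockin tumor lay below every p53-driven tumor, against 7.54% of all genes. Summed over the 9 enzymes, expression was 871, 765, 1679 and 568 CPM in the p53-driven tumors and 205, 186.8, 179, 221 and 393 CPM in the Myc-knockin tumors. Without F325 none of the 4 remained called, and without F331 or F368 only *Arsb* did.

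*Arsb* encodes arylsulfatase B, which removes the 4-sulfate of N-acetylgalactosamine in dermatan and chondroitin sulfate (ENSMUSG00000042082, chromosome 13, 93771630 to 93943016, plus strand). *Arsb* was at 344, 268, 818 and 119 CPM in the p53-driven tumors and at 24.01, 24.7, 22.3, 21.3 and 43.6 CPM in the Myc-knockin tumors. The lowest p53-driven tumor was F368 and the highest F331, whereas 4 of the 5 Myc-knockin tumors lay within 21.3 to 24.7 CPM and M664 above them. The means were 387 ± 302 CPM against 27.2 ± 9.27 (SD, n = 4 and 5), with a log2 fold change of -3.82 (standard error 0.52, edgeR adjusted p = 0.0137). This was the lowest log2 fold change of the 48 genes, 14.1-fold lower. The *Arsb* call was lost without F325 (edgeR adjusted p = 0.0631). It was -3.97 in the 7 tumors without M624 and M664 and -3.62 in the 5 tumors without satellite reads, and it was the 1 lysosomal gene still called when counts were scaled by library size alone. Exons of *Gm26527* and *Gm47210* lie on the opposite strand of *Arsb*, and the strand setting of the counting is not given in the sources used here.

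*Hexa*, the alpha subunit of beta-hexosaminidase, acts on the N-acetylhexosamine ends of glycosaminoglycans and of GM2 ganglioside (ENSMUSG00000025232, chromosome 9, 59539540 to 59565109, plus strand). *Hexa* was at 204, 169.8, 386 and 141 CPM in the p53-driven tumors and at 41.2, 32.97, 15.1, 46.3 and 96.3 CPM in the Myc-knockin tumors. M664 was the nearest Myc-knockin tumor to the p53-driven tumors and M9 the farthest. It had a log2 fold change of -2.26 (standard error 0.49, edgeR adjusted p = 0.0320). *Glb1*, beta-galactosidase, removes galactose from keratan sulfate and GM1 ganglioside (ENSMUSG00000045594, chromosome 9, 114401076 to 114474898, plus strand). *Glb1* was at 107, 94.4, 178 and 57.3 CPM in the p53-driven tumors and at 21.5, 21.8, 18.3, 32.8 and 46.4 CPM in the Myc-knockin tumors. F368 and M664 were the nearest pair across the groups. The gene had a log2 fold change of -1.94 (standard error 0.38, edgeR adjusted p = 0.0261). The *Hexa* call was lost when F187, F325, F331, F368, M351 or M624 was left out (edgeR adjusted p of 0.0574 to 0.117). The *Glb1* call was lost when F187, F325, F331 or F368 was left out (edgeR adjusted p of 0.0508 to 0.102). Exons of *Tmem202* lie opposite those of *Hexa*, and *Tmppe* shares exon sequence with *Glb1* on the same strand.

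*Ids*, iduronate 2-sulfatase, starts the breakdown of heparan and dermatan sulfate (ENSMUSG00000035847, chromosome X, 70343069 to 70365084, minus strand). *Ids* was at 57.3, 72.2, 55.9 and 111 CPM in the p53-driven tumors and at 32.01, 27.1, 23.9, 23.3 and 22.1 CPM in the Myc-knockin tumors. Here F368 was the highest p53-driven tumor, and F331, highest for *Arsb*, *Hexa* and *Glb1*, was the lowest. The 5 Myc-knockin tumors lay closer together than in the other called enzymes of the subgroup, and M664 was the lowest of them. The means were 74.2 ± 25.9 CPM against 25.7 ± 4.002 (SD, n = 4 and 5), with a log2 fold change of -1.54 (standard error 0.28, edgeR adjusted p = 0.0217). The *Ids* call was lost when F325, F331 or F368 was left out (edgeR adjusted p of 0.0640 to 0.0765). *Ids* stayed called without M624 and M664 (-1.36, edgeR adjusted p = 0.0451) and in the 5 tumors without satellite reads (-1.79, edgeR adjusted p = 0.0187).

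The other 5 enzymes of the subgroup did not pass the test. *Naglu*, the N-acetylglucosaminidase of heparan sulfate, was at 31.2, 25.6, 54.7 and 11.1 CPM in the p53-driven and at 5.54, 4.58, 4.78, 10.3 and 26.6 CPM in the Myc-knockin tumors, with a log2 fold change of -1.50 (edgeR adjusted p = 0.137). M664 lay above F325 and F368, and without M624 and M664 the gene was called (-2.58, edgeR adjusted p = 0.0417). *Sgsh*, the sulfamidase of heparan sulfate, was at 16.6, 16.4, 22.5 and 15.6 CPM and at 9.85, 7.69, 14.3, 2.400 and 10.8 CPM, with a log2 fold change of -1.02 (edgeR adjusted p = 0.169). *Idua*, which removes iduronic acid, was at 16.6, 15.01, 19.1 and 16.2 CPM and at 12.3, 4.94, 7.17, 10.1 and 10.02 CPM, with a log2 fold change of -0.91 (edgeR adjusted p = 0.107). In both *Sgsh* and *Idua* no Myc-knockin tumor reached the lowest p53-driven tumor, although the test was not passed. *Galns*, the 6-sulfatase of keratan and chondroitin sulfate, was at 27.3, 16.6, 19.7 and 17.4 CPM and at 6.77, 8.61, 12.7, 10.6 and 31.3 CPM, with a log2 fold change of -0.50 (edgeR adjusted p = 0.502). *Gusb*, beta-glucuronidase, was at 66.8, 86.6, 126 and 79.4 CPM and at 51.7, 54.4, 60.5, 63.8 and 106 CPM, with a log2 fold change of -0.41 (edgeR adjusted p = 0.406). In *Galns* and *Gusb* the groups overlapped through M664, which for *Galns* was the highest of all 9 tumors, and *Galns* turned to 0.25 in the 5 tumors without satellite reads. Exons of *Dgkq* and *Slc26a1* lie opposite those of *Idua*, and exons of *Card14* opposite those of *Sgsh*. The low levels rest on few reads, since *Naglu* and *Idua* had 6 and 9 counts in M9. Reads of genomic origin, estimated from chemosensory receptor genes, could make up to 55.04% and 58.03% of the counts of these 2 genes in a tumor.

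**Figure D2:**
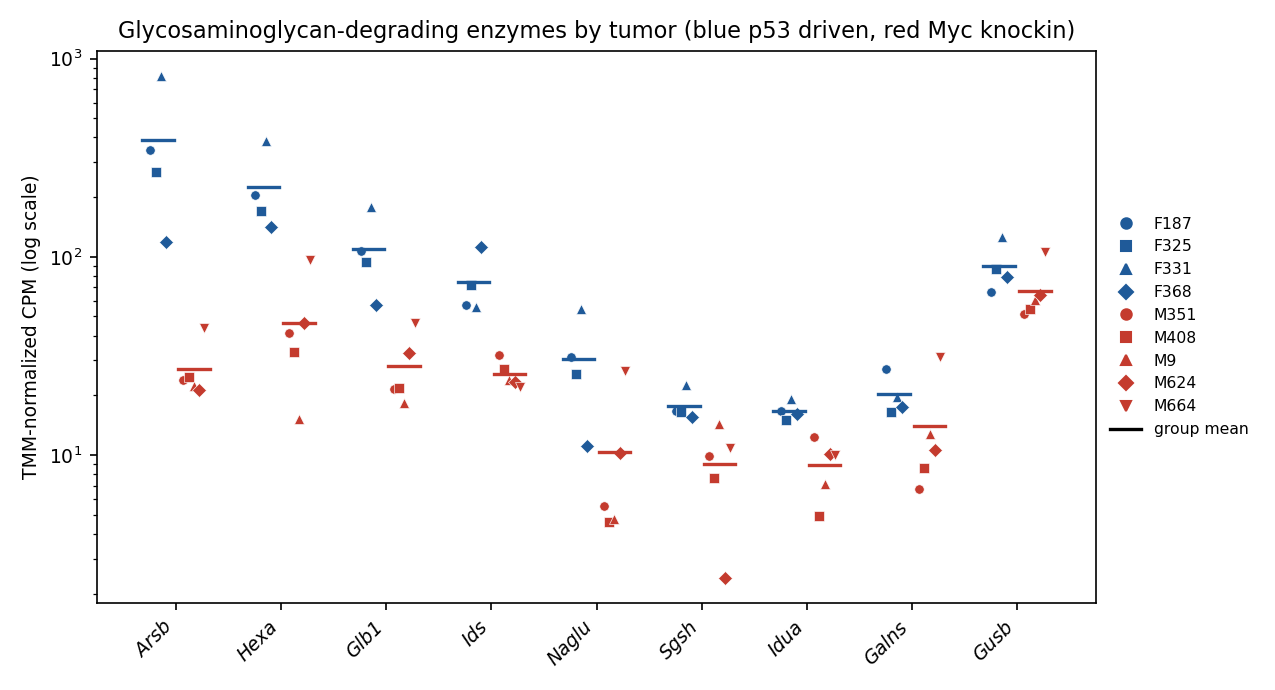
The TMM-normalized CPM of the 9 glycosaminoglycan-degrading enzymes is plotted on a log axis, with a point for each tumor (blue p53 driven, red Myc knockin, shapes as in the key) and a line for each group mean. For *Arsb*, *Hexa*, *Glb1*, *Ids*, *Sgsh* and *Idua* every red point lies below every blue point, whereas M664 reaches the blue points for *Naglu*, *Galns* and *Gusb*.

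Of the 6 other glycosidases, which act on glycoproteins, glycogen and glycolipids, 1 was called lower and the median log2 fold change was -0.70. *Manba* encodes beta-mannosidase, which cuts the last mannose of glycoprotein sugar chains (ENSMUSG00000028164, chromosome 3, 135485611 to 135571404, plus strand). *Manba* was at 68.7, 50.01, 98.95 and 65.3 CPM in the p53-driven tumors and at 27.7, 14.5, 33.5, 19.7 and 35.5 CPM in the Myc-knockin tumors. The groups did not overlap, and M408 was the lowest tumor. It had a log2 fold change of -1.44 (standard error 0.33, edgeR adjusted p = 0.0351). The *Manba* call was lost when F187, F325, F331, F368, M351 or M624 was left out (edgeR adjusted p of 0.0574 to 0.130). *Neu1*, the sialidase that forms a complex with protective protein (*Ctsa*) and beta-galactosidase (*Glb1*), had a log2 fold change of -0.997 (edgeR adjusted p = 0.172). *Man2b1* (alpha-mannosidase), *Gaa* (acid alpha-glucosidase, which degrades glycogen) and *Fuca1* (alpha-fucosidase) had log2 fold changes of -0.75, -0.64 and -0.51 and were not called. *Gla*, alpha-galactosidase A, was at 7.42 to 15.5 CPM in the p53-driven and 9.52 to 16.2 CPM in the Myc-knockin tumors, with a log2 fold change of 0.18 (edgeR adjusted p = 0.767).

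Among the 7 lysosomal peptidases, 1 was called lower and the median was -0.54. *Ctsa* encodes cathepsin A, or protective protein, a carboxypeptidase that also keeps beta-galactosidase and the sialidase stable (ENSMUSG00000017760, chromosome 2, 164832873 to 164841032, plus strand). *Ctsa* was at 402, 424, 535 and 535 CPM in the p53-driven tumors and at 78.8, 90.7, 131, 119 and 231 CPM in the Myc-knockin tumors. The p53-driven tumors lay close together, and the highest Myc-knockin tumor, M664, remained below all of them. The means were 474 ± 70.8 CPM against 130.2 ± 60.2 (SD, n = 4 and 5), with a log2 fold change of -1.86 (standard error 0.36, edgeR adjusted p = 0.0252). The *Ctsa* call was lost when F325, F331 or F368 was left out (edgeR adjusted p of 0.0811 to 0.103). Exons of *Neurl2* and *Pltp* lie on the opposite strand of *Ctsa*. *Ctsz* (cathepsin Z) and *Tpp1* (tripeptidyl peptidase) had log2 fold changes of -0.98 and -1.03 and were not called. The endopeptidases *Ctsb* and *Ctsd* had values of 363 to 795 against 186 to 850.0 CPM and 136 to 194 against 50.2 to 268 CPM, so that the spread within the Myc-knockin group was wider than any difference. The sign of *Ctsd*, at -0.01, turned under several alternatives, library size alone among them. The aminopeptidase *Ctsh* had a log2 fold change of -0.54 and *Ctsl*, whose highest value was 564 CPM in M408, one of 0.64, and neither was called.

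The lysosomal breakdown of sphingolipids needs both hydrolases and small activator proteins that lift the lipid out of the membrane. Of the 9 lipid-degrading enzymes and soluble lumenal proteins, all had a log2 fold change below 0, 3 were called lower, and the median was -0.96. *Gm2a*, the activator that presents GM2 ganglioside to beta-hexosaminidase A (ENSMUSG00000000594, chromosome 11, 55098115 to 55113029, plus strand), was lower together with the enzyme subunit *Hexa*. *Gm2a* was at 179.7, 138, 255 and 104 CPM in the p53-driven tumors and at 43.7, 43.04, 30.3, 51.1 and 84.3 CPM in the Myc-knockin tumors. F331 was highest and F368 lowest of the p53-driven tumors, and M664 was the nearest Myc-knockin tumor. It had a log2 fold change of -1.73 (standard error 0.36, edgeR adjusted p = 0.0287). The *Gm2a* call was lost when F187, F325, F331, F368, M351 or M624 was left out (edgeR adjusted p of 0.0535 to 0.108).

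*Ppt1* encodes palmitoyl-protein thioesterase, which strips fatty acids from proteins (ENSMUSG00000028657, chromosome 4, 122836242 to 122859175, plus strand). *Ppt1* was at 90.8, 88.8, 114 and 102 CPM in the p53-driven tumors and at 37.5, 46.3, 23.9, 36.96 and 51.9 CPM in the Myc-knockin tumors. The p53-driven tumors spanned a narrow range and the Myc-knockin tumors lay below it. The gene had a log2 fold change of -1.32 (standard error 0.26, edgeR adjusted p = 0.0265). *Asah1*, acid ceramidase, splits ceramide into sphingosine and fatty acid (ENSMUSG00000031591, chromosome 8, 41340197 to 41374773, minus strand). *Asah1* was at 140.2, 109, 153 and 142 CPM in the p53-driven tumors and at 71.4, 92.5, 53.4, 52.2 and 69.8 CPM in the Myc-knockin tumors. M408 came nearest to the p53-driven tumors, of which F325 was the lowest. With a log2 fold change of -1.0 (standard error 0.26, edgeR adjusted p = 0.0480), it was the called gene closest to the threshold. The *Ppt1* call was lost when F187, F325, F331, F368 or M624 was left out (edgeR adjusted p of 0.0516 to 0.109). The *Asah1* call was lost when F187, F325, F331, F368, M351, M624, M664 or M9 was left out (edgeR adjusted p of 0.0511 to 0.163). Exons of *Cap1* lie opposite those of *Ppt1*.

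The other 6 genes of this group were not called. *Grn* (progranulin), *Npc2* (a cholesterol carrier), *Psap* (prosaposin, the precursor of the saposin activators) and *Arsa* (arylsulfatase A) had log2 fold changes of -1.15, -0.96, -0.92 and -0.77, and of these only *Arsa* had groups that did not overlap. *Smpd1* (acid sphingomyelinase) and *Lipa* (acid lipase) had log2 fold changes of -0.34 and -0.07, and both turned positive in the 5 tumors without satellite reads, at 0.27 and 0.13. M664 was the highest Myc-knockin tumor for 8 of the 9 genes and F331 the highest p53-driven tumor for 8.

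The membrane proteins bound the lysosome and move lipids and ions across its membrane. Of 8 in the list, 1 was called lower, and the median log2 fold change was -0.60. *Npc1* (ENSMUSG00000024413), which carries cholesterol across the lysosomal membrane, was the gene called. *Npc1* was at 84.9, 74.7, 113 and 103 CPM in the p53-driven tumors and at 29.5, 48.9, 25.5, 26.9 and 31.8 CPM in the Myc-knockin tumors. The groups were well apart, and M408 was the nearest Myc-knockin tumor. The means were 94.01 ± 17.4 CPM against 32.5 ± 9.47 (SD, n = 4 and 5), with a log2 fold change of -1.53 (standard error 0.27, edgeR adjusted p = 0.0217). The *Npc1* call was lost when F325, F331 or F368 was left out (edgeR adjusted p of 0.0647 to 0.0871). Exons of *Rmc1* and *Gm15956* lie on the opposite strand. *Lamp2*, an abundant glycoprotein of the membrane with a role in autophagy, was at 292, 373, 321 and 476 CPM in the p53-driven and 179, 225, 153, 93.9 and 162 CPM in the Myc-knockin tumors. These groups did not overlap, and it was called in the 5 tumors without satellite reads (-1.58, edgeR adjusted p = 0.0292).

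The related *Lamp1* was at 292 to 406 CPM in the p53-driven and 188 to 332 CPM in the Myc-knockin tumors, with a log2 fold change of -0.57 (edgeR adjusted p = 0.225). *Laptm4a*, *Scarb2* (LIMP-2, a sorting receptor for a lysosomal enzyme) and the tetraspanin *Cd63* had log2 fold changes of -0.96, -0.62 and -0.40 and were not called. *Cd63* differed within the Myc-knockin group as *Atp6v0c* did, with M351, M408 and M9 at 59.1, 58.1 and 39.04 CPM and M624 and M664 at 181 and 239 CPM. It was called lower in the 7 tumors without that pair (-1.49, edgeR adjusted p = 0.0442), and its sign turned in the 5 tumors without satellite reads (0.29). *Mcoln1*, the calcium channel of the lysosome, and *Cln3*, the protein of juvenile Batten disease, had log2 fold changes above 0, at 0.22 and 0.84. *Cln3* was called higher in the 5 tumors without satellite reads (1.43, edgeR adjusted p = 0.0400), and in 1 of the other libraries the estimated genomic background was 119.7% of its counts, that is, as high as the gene itself. *Ctsl* and *Gla*, described above, were the other 2 genes with a log2 fold change above 0.

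**Figure D3:**
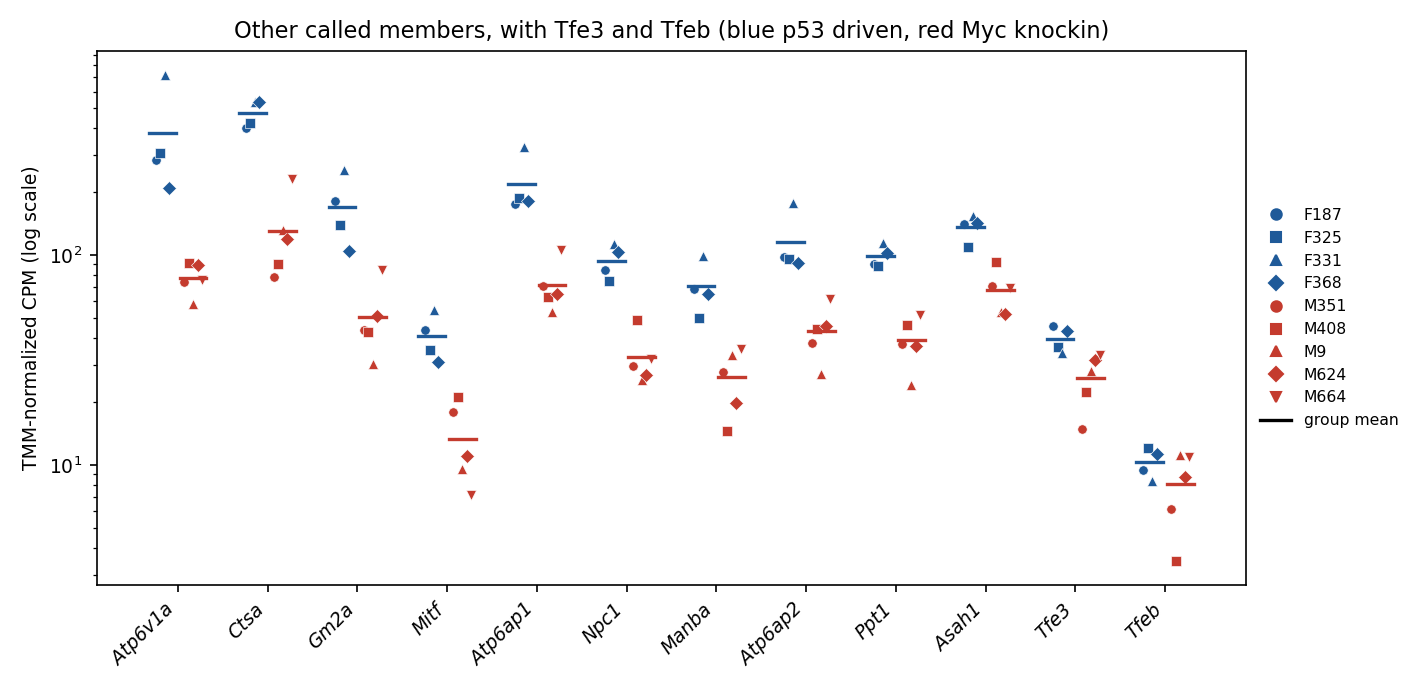
The TMM-normalized CPM of the 10 called genes that are not glycosaminoglycan-degrading enzymes, with *Tfe3* and *Tfeb*, is plotted on a log axis, with a point for each tumor (blue p53 driven, red Myc knockin) and a line for each group mean. In the 10 called genes and in *Tfe3* every red point lies below every blue point, and in *Tfeb* the colors mix.

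Of the 3 MiT/TFE factors, 1 was called lower. *Mitf*, known for its part in melanocytes and osteoclasts (ENSMUSG00000035158, chromosome 6, 97807052 to 98021349, plus strand) was the gene called. *Mitf* was at 43.8, 35.1, 54.7 and 30.8 CPM in the p53-driven tumors and at 17.9, 21.1, 9.56, 10.97 and 7.17 CPM in the Myc-knockin tumors. The groups did not overlap, and M664, which was the highest Myc-knockin tumor for 34 of the 48 genes, was the lowest for *Mitf*. The means were 41.1 ± 10.6 CPM against 13.3 ± 5.87 (SD, n = 4 and 5), with a log2 fold change of -1.63 (standard error 0.36, edgeR adjusted p = 0.0328). The *Mitf* call was lost when F187, F325, F331, F368 or M624 was left out (edgeR adjusted p of 0.0628 to 0.116). It was not called without M624 and M664 (-1.24, edgeR adjusted p = 0.0704). *Mitf* had 12 counts in M9, and genomic background could make up to 64.2% of its counts in a tumor, but with that background subtracted it had a log2 fold change of -1.75 (edgeR adjusted p = 0.0331).

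*Tfe3* and *Tfeb* are expressed in most tissues and act on lysosomal genes in response to nutrients. *Tfe3* was at 45.8, 36.3, 34.1 and 43.5 CPM in the p53-driven tumors and at 14.8, 22.2, 27.9, 31.7 and 33.4 CPM in the Myc-knockin tumors. No Myc-knockin tumor reached the lowest p53-driven tumor, though M664 came close to F331, and the log2 fold change of -0.61 (edgeR adjusted p = 0.194) was not a call. *Tfeb* was at 9.48, 11.98, 8.39 and 11.3 CPM and at 6.16, 3.48, 11.2, 8.801 and 10.9 CPM, with a log2 fold change of -0.35 (edgeR adjusted p = 0.602) and groups that overlapped. These are transcript levels, and the place of the proteins in the cell was not measured.

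Levels of different genes were compared per kilobase of exon. In the p53-driven tumors the order of the 48 genes was led by *Psap* at 300.4 ± 83.4 CPM per kilobase (SD, n = 4), *Laptm4a* at 231 ± 75.1, *Ctsz* at 167 ± 30.2 and *Lamp1* at 132 ± 22.1, and the spread of each neighbour overlapped that of the next. In the Myc-knockin tumors the same 4 genes led, at 158 ± 119, 119 ± 51.01, 84.4 ± 41.2 and 88.3 ± 21.2 CPM per kilobase (SD, n = 5). *Arsb* took place 11 of 48 in the p53-driven and place 35 in the Myc-knockin tumors, the widest shift downward. *Hexa* went from place 5 to 12, *Npc1* from 34 to 42, and *Ctsl* in the other direction from 22 to 7. The 3 MiT/TFE factors were near the bottom of the list in both groups. *Mitf* was at 6.63 ± 1.705 and 2.15 ± 0.948 CPM per kilobase, *Tfe3* at 4.31 ± 0.607 and 2.81 ± 0.823, and *Tfeb* at 1.81 ± 0.291 and 1.43 ± 0.576.

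The element that the MiT/TFE factors are known to bind was looked for in the promoters. RefSeq promoter sequences of the GRCm38.p6 assembly, 250 bases before to 50 bases after each start site, were matched for 42 of the 48 genes, and *Asah1*, *Atp6v1h*, *Ctsb*, *Ctsh*, *Galns* and *Npc1* were not in that table. The core CACGTG was searched, and the longer TCACGTGA, which contains it. Both read the same on both strands. CACGTG was found for 13 of the 42 genes (31.0%) and for 8.09% of 27025 genes with promoters of the same length. TCACGTGA was found for 6 of 42 (14.3%) and for 1.12% of all genes. Among genes called lower, 3 of 12 held CACGTG (*Atp6v1a*, *Ctsa* and *Glb1*) and 2 of 12 held TCACGTGA (*Atp6v1a* and *Ctsa*). Among genes not called, 10 of 30 held the shorter and 4 of 30 the longer motif (*Cln3*, *Ctsd*, *Gla* and *Mcoln1*). Of the glycosaminoglycan-degrading enzymes, 3 of 8 held CACGTG (*Glb1*, *Naglu* and *Sgsh*) and 0 held TCACGTGA. The motif was thus present both in genes with a lower level in Myc-knockin tumors and in *Cln3*, *Gla* and *Mcoln1*, whose log2 fold change was above 0.

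The stretches around the motif are shown for the 3 called genes that hold it and for 3 genes that hold it and were not lower, 5′ to 3′ on the strand of the gene, with the motif in capitals. In *Ctsa* the longer motif occurs a second time a few bases on, and in *Mcoln1* the shorter one occurs before the longer. Further motifs are not whole in the stretches shown. *Gla* holds the longer one a second time, from 228 bases before the start site, and *Cln3* the shorter one, from 149 bases before.
Atp6v1a, chr16:44139358-44139417, minus strand: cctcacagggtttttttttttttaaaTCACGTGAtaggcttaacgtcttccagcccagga
Ctsa, chr2:164833734-164833793, plus strand: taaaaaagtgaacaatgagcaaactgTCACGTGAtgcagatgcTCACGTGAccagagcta
Glb1, chr9:114401004-114401061, plus strand: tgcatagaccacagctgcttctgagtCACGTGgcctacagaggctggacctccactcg
Cln3, chr7:126583325-126583384, minus strand: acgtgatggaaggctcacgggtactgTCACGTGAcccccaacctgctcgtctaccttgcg
Gla, chrX:134601167-134601226, minus strand: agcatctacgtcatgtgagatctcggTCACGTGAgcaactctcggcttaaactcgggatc
Mcoln1, chr8:3500447-3500506, plus strand: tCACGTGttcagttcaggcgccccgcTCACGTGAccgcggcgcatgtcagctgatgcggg
The first base of the longer motif, at its first place in the stretch, or in *Glb1* of the shorter, lies 132 bases before the start site in *Atp6v1a*, 13 in *Ctsa*, 48 in *Glb1*, 122 in *Cln3*, 195 in *Gla* and 46 in *Mcoln1*. A match describes these letters only, and binding was not measured.

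Further genes of the same pathways, listed by function but with earlier results of these data known, were lower in part. Among other genes of glycosaminoglycan breakdown, the genes called lower included *Sumf1*, which activates all sulfatases, *Arsb* and *Ids* included (-1.62, edgeR adjusted p = 0.0266). *Hyal1*, a hyaluronidase, was not called (-2.19, edgeR adjusted p = 0.0612). Of 11 other V-ATPase subunits, 4 were called lower and all 4 belong to V1, namely *Atp6v1b2* (-2.35), *Atp6v1c1* (-1.99), *Atp6v1d* (-1.66) and *Atp6v1e1* (-1.51). *Atp6v0e2* had the largest log2 fold change above 0 in that list and was not called (2.20, edgeR adjusted p = 0.0855). In the p53-driven tumors that value rests on few reads, with 0.69 to 1.71 CPM and 2 counts in F187. M624 and M664 had 94 and 224 counts. Genomic background could make up to 84.5% of its counts in a tumor. With that background subtracted *Atp6v0e2* had a log2 fold change of 2.30 (edgeR adjusted p = 0.101). It passed the thresholds with DESeq2 (2.20, DESeq2 adjusted p = 0.0229) and in the 5 tumors without satellite reads (2.48, edgeR adjusted p = 0.038). Of the 3 tested isoforms of osteoclast and kidney, *Atp6v0d2*, the V0 subunit of osteoclasts, was called lower (-4.21, edgeR adjusted p = 0.0116), and *Tcirg1*, the a3 subunit of osteoclasts, was not (-1.21, edgeR adjusted p = 0.273).

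Among other hydrolases, the genes called lower included *Ctsk*, the collagen-cutting protease of osteoclasts (-3.81, edgeR adjusted p = 0.0348), and *Acp2*, an acid phosphatase (-1.19, edgeR adjusted p = 0.0287). *Acp5*, the tartrate-resistant phosphatase of osteoclasts, was not called (-3.71, edgeR adjusted p = 0.0576). Of 14 other membrane proteins, 3 were called lower, which were *Cd68* (-2.27, edgeR adjusted p = 0.0229), a protein of macrophage lysosomes, *Tmem106b* (-1.62, edgeR adjusted p = 0.0217) and the chloride-proton exchanger *Clcn7* (-1.47, edgeR adjusted p = 0.0350). Of 6 genes that tag and sort lysosomal enzymes by mannose 6-phosphate, *Gnptab*, which adds the tag, was called lower (-1.85, edgeR adjusted p = 0.0363). The receptor *Igf2r* lay just outside (-1.14, edgeR adjusted p = 0.0522). Of 16 genes that control the MiT/TFE proteins through mTORC1 and folliculin, 0 were called in either direction by edgeR, and the median log2 fold change was -0.12. *Fnip1*, a partner of folliculin, had the lowest value in that list (-1.22, edgeR adjusted p = 0.0511) and *Flcn*, folliculin, the highest (0.84, edgeR adjusted p = 0.176).

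Markers of other cells of a bone tumor were tested in the same fit. Of 11 osteoclast markers, 7 were called lower in the Myc-knockin tumors (*Dcstamp*, *Oscar*, *Calcr*, *Atp6v0d2*, *Ctsk*, *Ocstamp* and *Tnfrsf11a*). Their summed level was 2916 to 14766 CPM in the p53-driven and 178 to 2785 CPM in the Myc-knockin tumors, and *Dcstamp* was at 0 in M408. Of 14 macrophage markers, 3 were called lower (*Csf1r*, *Cd68* and *Tyrobp*), and the sum was 1141 to 1891 CPM against 444 to 1371 CPM, with no marker at 0. The other 11 were not called, and 4 of the 14 had a log2 fold change above 0 (*Cd14*, *C1qb*, *C1qa* and *Aif1*). Of 6 leukocyte markers 0 were called by edgeR, with sums of 270.3 to 535 against 68.5 to 258 CPM. Of these, 5 had a log2 fold change below 0 (median of the 6, -1.31), and *Coro1a* was at 1.29. With DESeq2, *Ptprc*, *Laptm5* and *Itgb2* passed (DESeq2 adjusted p of 0.0133 to 0.0394), and *Cd53*, *Coro1a* and *Cd52* did not. Of 11 osteoblast markers, *Bglap* and *Bglap2* were called lower and were at 0 in M408, *Bglap2* also in M624, and the sum, mostly of *Col1a1* and *Col1a2*, was 61925 to 140389 against 3405 to 40219.9 CPM. No neutrophil, endothelial or skeletal muscle marker tested was called, and the sums of these lists overlapped between the groups. Of 5 red cell markers, the 4 globin genes did not pass the filter on low counts and *Alas2* was not called. The red cell sum was 216 and 783 CPM in M624 and M664 against 3.55 to 26.7 CPM in the other 7 tumors, so that this pair stood apart here too. *Ctsk*, *Acp5*, *Cd68*, *Laptm5* and the osteoclast V-ATPase genes stand both in these marker lists and in the lysosomal lists above.

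Within each group, the tumor that was the highest for most of the lysosomal genes, F331 or M664, also had the highest sums of osteoclast, macrophage, leukocyte and endothelial markers. The sum of all 48 genes was 6385, 6654, 9555 and 7222 CPM in F187, F325, F331 and F368, which is the order of their macrophage sums, 1141, 1324, 1891 and 1510.3 CPM. The sums of the 9 glycosaminoglycan-degrading enzymes in these 4 tumors, given above, stood in the order of the osteoclast sums, 7522, 5477, 14766 and 2916 CPM. The leukocyte sums, 299, 296, 535 and 270.3 CPM, stood in that same order. The Myc-knockin tumors did not keep either order. M624 came next to M664 over the 48 genes, at 3914 CPM, but had the lowest macrophage sum, 444 CPM. For the 9 enzymes M624 again came next to M664, at 221 CPM. Its osteoclast sum, 344 CPM, was nevertheless below those of M351 (445 CPM) and M408 (346 CPM). F331 was the highest p53-driven tumor for all 11 osteoclast markers and for 31 of the 48 lysosomal genes, against 25.0% of all genes, and F368 the lowest for 10 of the 11 markers and 20 of the 48 genes, against 23.4%. F331 was the highest p53-driven tumor for only 5 of the 14 macrophage markers, and its osteoblast sum, 131519 CPM, was below that of F368, 140389 CPM. M664 was the highest Myc-knockin tumor for 7 of the 11 osteoclast markers, 11 of the 14 macrophage markers and 34 of the 48 genes, against 20.2%. M664 had the highest osteoblast sum of its group as well, 40219.9 CPM. Its osteoclast sum, 2785 CPM, was next to that of F368, 2916 CPM, and its glycosaminoglycan-degrading enzymes summed to 393 CPM against 568 CPM. Without M664, the log2 fold change was farther from 0 for *Arsb* (-4.04), *Hexa* (-2.70) and *Glb1* (-2.17) and nearer to 0 for *Ids* (-1.46). The part of these cell types in the lysosomal result was not tested.

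**Figure D4:**
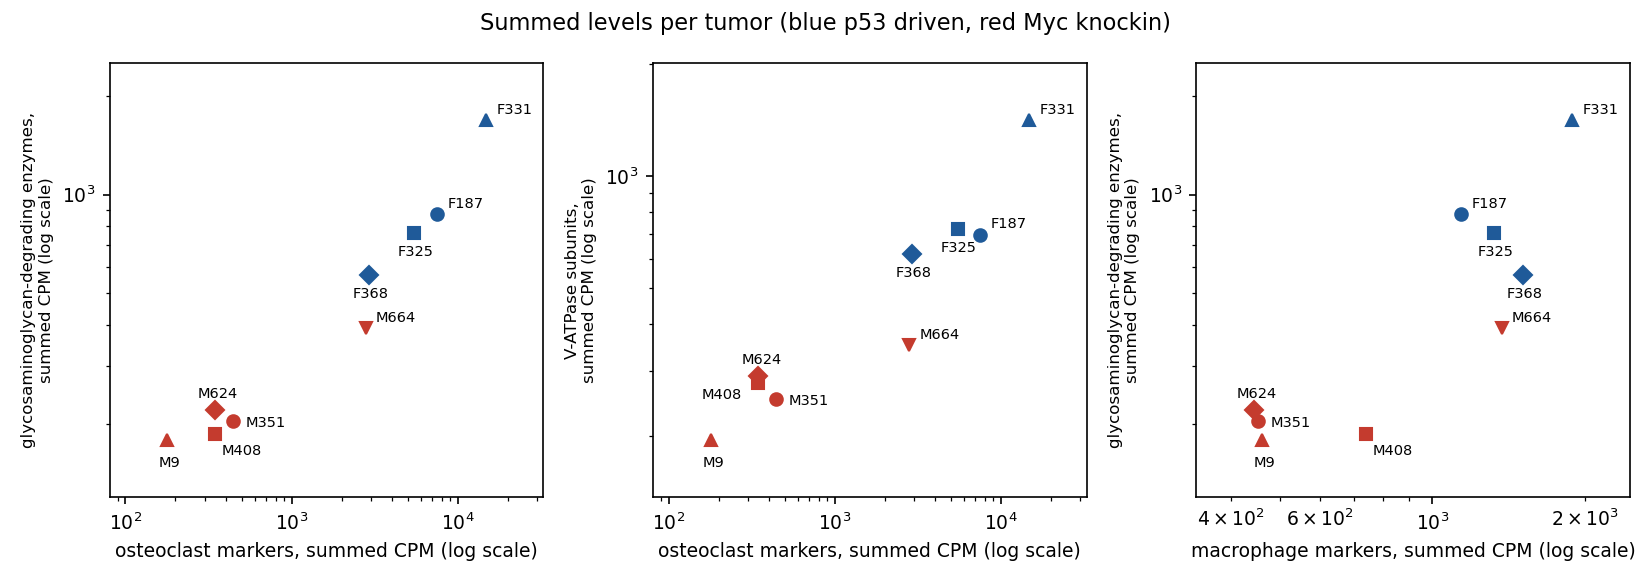
Each point is a tumor (blue p53 driven, red Myc knockin), with the summed CPM of the osteoclast markers (left and middle) or macrophage markers (right) on the horizontal axis and the summed CPM of the 9 glycosaminoglycan-degrading enzymes (left and right) or 6 V-ATPase subunits (middle) on the vertical axis, all on log scales. In the left and middle panels M664 lies between the other 4 Myc-knockin tumors and F368, and F331 lies at the upper right in all 3 panels.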

How the data were processed

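RNA-Seq of whole tumors from 4 p53-driven and 5 Myc-knockin GEMMs was analysed. The authors enriched mRNA with oligo-dT, prepared stranded libraries, trimmed reads with Trim Galore, mapped them with STAR to mm10 and deposited raw counts per gene from featureCounts. The versions, the strand setting and the treatment of reads with several positions are not given in the sources used here. The study's own tests used DESeq2.

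The groups were compared with edgeR 4.0.16 under R 4.3.3 (TMM, filterByExpr with a minimum count of 10, glmQLFit and glmQLFTest) over all 9 tumors without covariates, and adjusted by Benjamini-Hochberg over 15365 genes. Levels are TMM-normalized CPM. Standard errors are the log2 fold change divided by the root of F. Positions and exon lengths came from GENCODE vM21, and genomic background from the counts per kilobase on 1781 chemosensory receptor genes. Values in every tumor are given for the genes called, the glycosaminoglycan-degrading enzymes, *Mitf*, *Tfeb* and *Tfe3*. From the pathway lists, the genes called and up to 3 of the largest change were named. Some genes of these lists are not reported here.

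The genes, lists and tests were chosen with earlier results of these data known. Alternatives were other normalizations, filters, thresholds, DESeq2 1.42.0, limma-voom (limma 3.58.1), subtraction of the background, removal of satellite genes or of sets of libraries, each tumor left out in turn and, chosen after seeing the data, satellite libraries as a covariate. The scripts were tested on simulated counts. Floors cover counting error only.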

Additional observations from a re-analysis of the deposited data

Results flagged for a closer look

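In 12 of the 96 groups examined (48 genes in 2 genotypes), the highest tumor lay farther from the others than Dixon's 95% critical value allows. For independent groups with a normal spread, about 1 in 20 would pass, or 4.8 of 96. The 48 genes were measured in the same 9 tumors, and the limit was applied to CPM without a log scale. The 12 therefore cannot be judged against 4.8. In the Myc-knockin group, M664 was the tumor in 6 of them. It stood at 43.61 CPM for *Arsb* against 24.72 CPM in the next tumor, 31.31 CPM for *Galns* against 12.75 CPM in the next tumor, 106.0 CPM for *Gusb* against 63.78 CPM in the next tumor. It stood also at 26.64 CPM for *Naglu* against 10.29 CPM in the next tumor, at 108.1 CPM for *Man2b1* against 54.17 CPM in the next tumor, at 76.34 CPM for *Fuca1* against 28.12 CPM in the next tumor. M408 was the tumor once, at 48.9 CPM for *Npc1* against 31.78 CPM in the next tumor. In the p53-driven group, F331 was the tumor in all 5. It stood at 8.563 CPM for *Cln3* against 5.925 CPM in the next tumor, 22.49 CPM for *Sgsh* against 16.59 CPM in the next tumor, 33.99 CPM for *Smpd1* against 20.93 CPM in the next tumor. For the V-ATPase genes it stood at 325.7 CPM for *Atp6ap1* against 187.5 CPM in the next tumor and 176.7 CPM for *Atp6ap2* against 97.96 CPM in the next tumor. No lowest tumor of a group passed this limit.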

How the results depend on the processing

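Depth limits the low genes, since 3 counts are worth 0.114 CPM in M624 and 2.39 CPM in M9. No paired analysis was possible because the columns carry no replicate numbers and were not matched to numbered samples. The 9 fits that leave out 1 tumor each gave 5 (without F368) to 1588 (without M9) genes called, 0 (without F325) to 18 (without M664) of the 48 lysosomal genes, 0 (without F325) to 5 (without M664) of the 9 glycosaminoglycan-degrading enzymes, and medians of the 48 genes from -1.08 to -0.79.

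The count over all genes was 809, and it was 2670 with DESeq2, 494 with all genes of at least 1 count, 1316 with at least 10 counts in every tumor, 136 with library size alone, 1663 with limma-voom, 2016 with the satellite libraries as a covariate, 4595 without the 4 libraries with satellite reads and 2248 at an adjusted p under 0.10. Of the lysosomal genes, 14 were called, against 7 with all genes of at least 1 count, 1 with library size alone (*Arsb*, also the only enzyme of the subgroup) and 23 with limma-voom. Without the 4 libraries with satellite reads 2 enzymes of the subgroup were called. The median of the 48 genes moved by less than 1 SD under every alternative run. This SD is the spread between tumors of each tumor's median log2 CPM over the 48 genes, pooled within the 2 groups. It is not the error of a log2 fold change. The median of the 48 genes stayed below that of all genes, by 0.60 (5 tumors) to 1.94 (at least 1 count). The median of all genes, 0.14, came to -0.04 with limma-voom, 0.03 when scaled by library size alone, 0.24 with upper-quartile normalization and 0.97 with all genes of at least 1 count. Of all calls, 461 were lower and 348 higher, whereas higher genes made up 64.5% of calls with upper-quartile normalization, 58.0% with DESeq2 and 59.7% with at least 10 counts in every tumor, while 0 of the lysosomal genes were called higher in these.

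Signs turned for genes that were not called. Without the 4 libraries with satellite reads the log2 fold change was 0.289 for *Cd63*, 0.2524 for *Galns*, 0.0262 for *Fuca1*, 0.2738 for *Smpd1*, 0.7347 for *Ctsd*, 0.1314 for *Lipa* and 0.6837 for *Atp6v0c*. It was -0.0347 for *Mcoln1* without M624 and M664 and -0.4492 for *Ctsl* with limma-voom. With library size alone it was 0.2099 for *Ctsd* and 0.0414 for *Atp6v0c*. *Ctsd* was also at 0.0547 with all genes of at least 1 count, 0.0629 with at least 10 counts in every tumor, 0.0246 with the background subtracted, 0.016 without satellite genes and 0.1058 with the covariate. *Lipa* was at 0.0408 with at least 10 counts, 0.0063 with the background subtracted, 0.0567 with the covariate and 0.0218 with upper-quartile normalization. With 1 tumor left out, *Ctsd* ranged from -0.29 to 0.22, *Lipa* from -0.28 to 0.0737, *Atp6v0c* from -0.63 to 0.13 and *Gla* from -0.0093 to 0.38. The causes were not tested.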
